A study of Caenorhabditis elegans with 32 samples.

Results

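Long H3K9me2 domains were taken as unbroken stretches of the Caenorhabditis elegans nuclear genome in which at least 8 consecutive 500-bp windows were enriched for dimethylated histone H3 lysine 9 in wild-type (WT) early embryos kept at 20 °C. A window was enriched when the log2 ratio of ChIP (IP) to input reads, averaged over the 2 pairs of libraries at 20 °C, was at least 1 and the input held at least 10 scaled reads. This rule gave 290 domains of at least 3999 bp, which covered 3300 of 200551 nuclear windows (1.65%). They were the longest of 10153 enriched runs, of which 2020 held 3 to 7 windows and 7843 held 1 or 2 windows. The domains were selected on the H3K9me2 IP and input reads at 20 °C, so their H3K9me2 values at 20 °C, and any difference between 37 °C and 20 °C, are given as descriptions without a test. H3K9me2 at 37 °C against its own input, and H3K27ac in every group, were measured in libraries that the rule did not use.

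H3K9me2 is a mark of heterochromatin that in worms covers repeats, transposons and silent tissue-specific genes, mainly on the distal arms of the autosomes. In worm embryos it is deposited by MET-2, the homolog of the mammalian methyltransferase SETDB1, and it contributes to transcriptional silencing and to the positioning of chromatin at the nuclear periphery. Acetylation of histone H3 at lysine 27 (H3K27ac) marks active promoters and enhancers and is in general low where H3K9me2 is high. Input is fragmented chromatin sequenced without an antibody, and it shows how many reads a region yields before enrichment.

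All libraries came from early embryos collected before the bean stage. H3K9me2 was profiled in the WT strain N2 (Bristol) at 20 °C and after 1 h at 37 °C as labelled, with 2 IP and 2 input libraries per temperature. H3K27ac was profiled with 3 IP and 3 input libraries in each of 4 groups, namely WT at 20 °C, WT at 37 °C (HS), met-2Δ at 20 °C and met-2-CD at 20 °C. The labels give 1 h at 37 °C for HS, and a figure legend of the study gives the same time for its H3K27ac peaks. The main text of the study gives a shorter exposure for the H3K27ac experiment. The met-2Δ animals carry the deletion allele met-2(n4256) III, and the met-2-CD animals carry met-2(gw1660) III, a CRISPR-made allele with a catalytically deficient SET domain. H3K9me2 ChIP–seq of the mutants was not analysed here, so the H3K9me2 content of these domains in met-2Δ and met-2-CD embryos is not given.

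The IP libraries held 25239790 to 56442676 counted reads for H3K9me2 and 19327992 to 36470940 for H3K27ac. The H3K9me2 inputs ranged from 9928436 to 89301222 reads, and their mitochondrial share was 4.44% in the 20 °C input replicate 2 and 32.0% to 45.0% in the other 3. Both 20 °C IP libraries were enriched in the domains, but unequally, since the median domain window held 9.66 times the median nuclear window in replicate 1 and 2.78 times in replicate 2. The 37 °C IP replicates were alike, at 2.03 and 2.08 times. Among the H3K27ac libraries some IP libraries stood apart from their fellows. HS replicate 2 had a domain-to-nuclear ratio of 1.20 against 0.933 and 0.919 in its fellows, and its chi-square per degree of freedom against them over all segments, about 2 for counting noise of paired mates, was 17.4 and 16.5. For met-2-CD replicate 3 the ratio was 0.798 against 0.868 and 0.880, and the chi-square per degree of freedom was 30.9 and 29.6. For met-2Δ replicate 2 the ratio was like that of its fellows, at 0.840 against 0.843 and 0.835. Its chi-square per degree of freedom was 11.6 and 20.6, compared with 5.64 between its fellows. Values without these libraries are given beside the main results that rest on them.

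The domains were short relative to the chromosomes and lay at their ends. The median run was 10 windows, 86 domains had exactly 8 windows, and a single run reached 53 windows. Chromosome III carried 73 domains, I carried 67, II carried 54, V carried 50, IV carried 33 and X carried 13. In terms of sequence, 3.06% of the windows of chromosome III lay in long domains and 0.454% of those of X. In all, 277 domains (95.5%) were centred in the outermost 25% of their chromosome at either end, and these ends hold 50.0% of the nuclear windows. The 2 arms of a chromosome did not share them equally. On chromosome III, 62 domains lay at the left end and 11 at the right, on V 6 lay in the left and 42 in the right, and on I the split was 24 and 39. Of the 13 domains in between, 4 were on I, 3 on X and 2 each on II, IV and V.

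**Figure D1:**
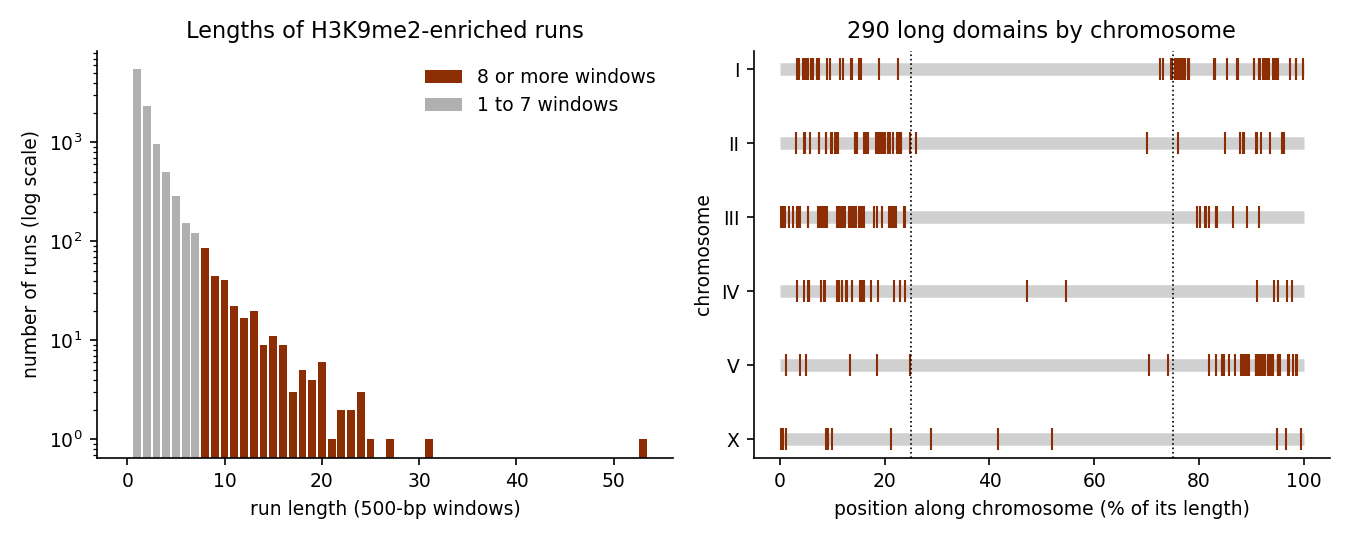
Left, number of H3K9me2-enriched runs at 20 °C (y axis, log scale) by their length in 500-bp windows (x axis), with the 290 runs of 8 or more windows in brown and shorter runs in grey. Right, centre of each long domain (tick) along its chromosome as a percentage of chromosome length, with dotted lines at 25% and 75%; 277 of the 290 ticks lie outside those lines.

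Domains were also close to one another. A neighbouring long domain lay within 10 kb of 103 domains (35.5%), and the median gap between adjacent domains of a chromosome was 51 kb. In 11 of 284 adjacent pairs a single window separated the domains. Of the 580 windows flanking the domains, 569 failed the enrichment minimum and 11 the input minimum, and 265 still had a mean log2 enrichment of at least 0.5, so that many borders are set by the threshold. Runs just inside the length threshold resembled those just outside it. The 86 runs of 8 windows had a median log2 H3K9me2 enrichment of 1.73 at 20 °C and 1.13 at 37 °C, and the 123 runs of 7 windows had 1.66 and 1.00.

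Within the domains, H3K9me2 formed a plateau with sharp borders. In the profile by relative position, the median log2 enrichment of the central eighths was 2.20 and 1.57 in the 2 pairs at 20 °C, and that of the terminal eighths was 1.88 and 1.38. It dropped to 0.17 and 0.59 in the first window outside, a step that the rule itself enforces at 20 °C. The same borders were seen at 37 °C, which the rule did not use, with 1.23 and 1.29 in the centre, 1.04 and 1.15 in the terminal eighths and 0.42 and 0.60 in the first window outside. H3K27ac in WT at 20 °C had its lowest values inside the domains, with medians in the centre of −0.51, −0.38 and −0.33, against −0.36, −0.28 and −0.24 in the first window outside.

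**Figure D2:**
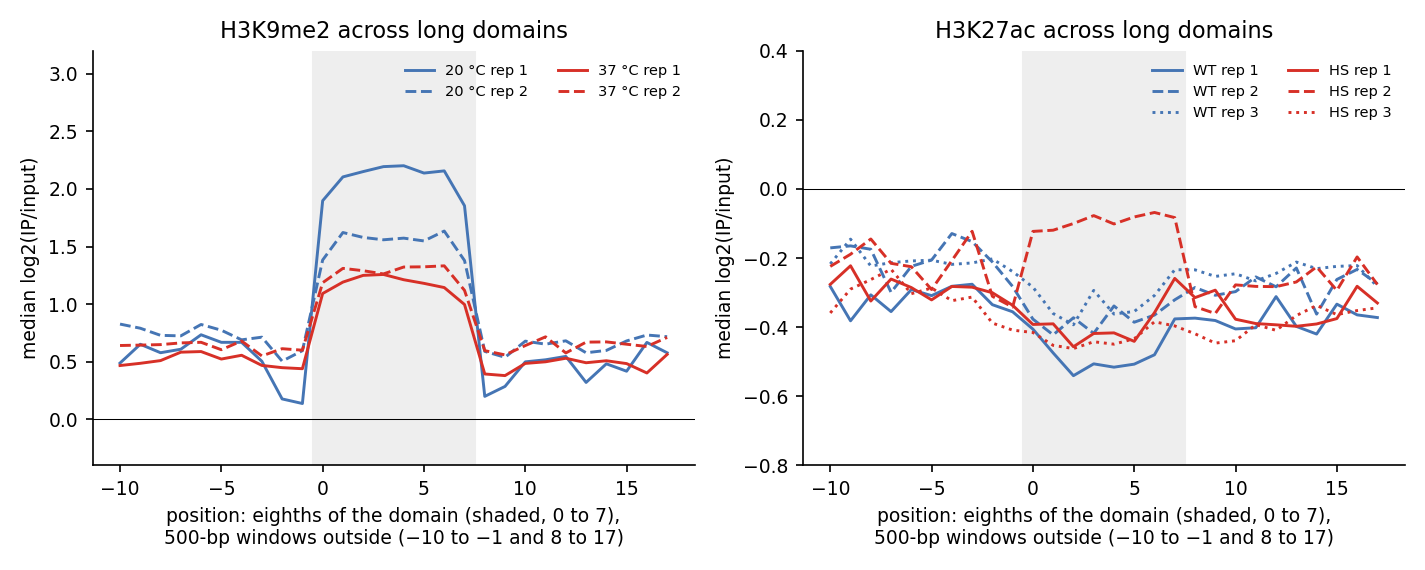
Median log2(IP/input) over the 290 domains (y axis) at relative positions (x axis), where the shaded positions 0 to 7 are eighths of each domain and the others are single 500-bp windows outside it. Left, H3K9me2 in 20 °C (blue) and 37 °C (red) pairs, where the central medians are 2.20 and 1.57 at 20 °C and 1.23 and 1.29 at 37 °C. Right, H3K27ac in the 3 WT (blue) and 3 HS (red) pairs, where HS replicate 2 alone lies higher inside the domains (−0.09 in the centre) than in the first window outside (−0.34).

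The measured enrichment differed between the 2 pairs at 20 °C, which are replicates of the same condition. The domain medians of log2 enrichment were 2.06 in pair 1, with a range of 0.63 to 3.19, and 1.55 in pair 2, with a range of 0.58 to 4.45. Across the 290 domains these values had a Pearson's r of −0.13 and a Spearman's rho of −0.0061 between the pairs. Those of the 2 pairs at 37 °C had an r of 0.91 and a rho of 0.87. The rule kept windows on the mean of the 20 °C pairs, which lowers the correlation between them, so the 2 temperatures cannot be compared by these values. Scaled IP reads alone had a rho of 0.48 between the 20 °C replicates and 0.98 between the 37 °C replicates. Domains of a pair share its libraries and depth. Windows outside domains of 3 or more windows had medians of −1.04 and −0.32 in the same 20 °C pairs.

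The first question was whether the domains still carried H3K9me2 over input after exposure to 37 °C. They did in most cases. The median log2 difference between IP and input at 37 °C was 1.17 over the 290 domains, which all passed the count filter, against 0.11 over all 24958 segments tested, that is the domains and the rest of the nuclear genome in blocks of 8 windows. IP exceeded input in 272 domains (93.8%; edgeR quasi-likelihood test with Benjamini–Hochberg adjustment over all segments, adjusted p under 0.01), compared with 14.5% of all segments. One domain was lower than input, compared with 5.61% of all segments. Blocks made mostly of windows from the shorter domains were also mostly enriched, 394 of 490 (80.4%), with a median of 0.82. The calls depended on scaling and on replicate number. With TMM normalization 228 domains were higher, beside 9.79% of segments, and none was lower (274 domains at an unadjusted p under 0.05, with no segment share computed). With a single IP library, which is then assumed to vary as the 2 inputs do, the counts were 185 and 193, all of them higher than input, beside 4.38% and 4.80% of segments.

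The strongest enrichment at 37 °C was found at chrIII:221602-225601, an 8-window domain near the left end of chromosome III. Its scaled H3K9me2 reads per window at 37 °C were 795 and 792 in the IP libraries and 163 and 155 in the inputs, so that both IP libraries were far above both inputs (log2 difference 2.32 ± 0.20 SE, adjusted p = 1.70e-07). Next came chrI:13640943-13645442, with 735 and 710 reads in the IP and 172 and 160 in the input (2.12 ± 0.20, adjusted p = 5.56e-07). The third was chrIII:3250589-3257088, with 721 and 748 against 177 and 168 (2.09 ± 0.24, adjusted p = 3.15e-06). All windows of these 3 domains, 8, 9 and 13 in number, were at least 2-fold over input at 37 °C. By chromosome, IP was higher than input in 57 of 67 domains on I (16.8% of its segments), 51 of 54 on II (17.2%), all 73 on III (20.9%), 31 of 33 on IV (11.9%), 48 of 50 on V (15.4%) and 12 of 13 on X (6.92%).

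**Figure D3:**
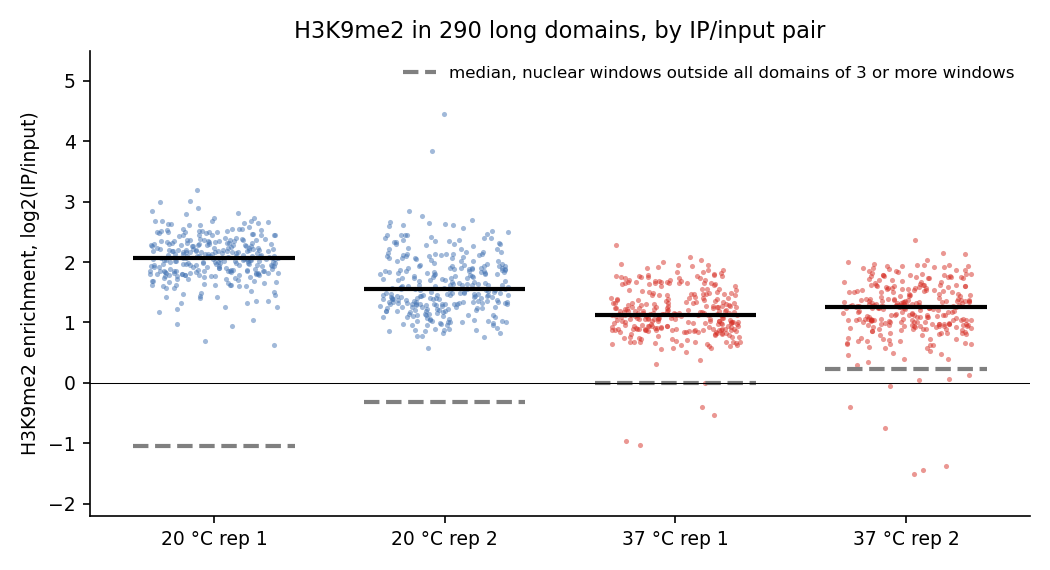
Mean log2(IP/input) of H3K9me2 (y axis) in each of the 290 long domains (points) for the 4 same-numbered IP/input pairs (x axis), with the domain median as a black bar and the median of windows outside domains of 3 or more windows as a dashed grey bar. The domain medians are 2.06 and 1.55 at 20 °C, where the domains were chosen, and 1.13 and 1.25 at 37 °C, and 5 and 6 domains fall to 0 or below in the 37 °C pairs.

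Of the 18 domains that were not called enriched at 37 °C, 10 were on chromosome I. Both 37 °C inputs were above the median of all long domains in 16 of the 18, and both 37 °C IP libraries were below it in 12. The 18 were set apart by these same libraries, so high inputs and low IP reads follow in part from that choice. The lowest values belonged to 3 domains. At chrI:10945455-10953454 the 37 °C IP libraries held 1097 and 1425 scaled reads per window and the inputs 2331 and 4322, so that the inputs were the higher (log2 difference −1.40 ± 0.56 SE, adjusted p = 0.0690). This domain also had 3126 input reads in 20 °C replicate 1 but 140 in 20 °C replicate 2, and 42.0 to 53.0 in the 3 WT inputs of the H3K27ac series, so its 20 °C enrichment was 0.63 in pair 1 and 3.83 in pair 2. At chrII:694011-699010, the single domain called lower than input, the inputs held 249 and 456 reads at 37 °C, and 323 and 18.4 in the 20 °C replicates, while the IP libraries at 37 °C held 170 and 166 (−1.06 ± 0.21, adjusted p = 0.000715). That call was lost when either IP library was left out (adjusted p up to 0.0773). Its 20 °C enrichment was 1.04 in pair 1 and 4.45 in pair 2. In both domains the high value was that of pair 2, whose input is the library with the low mitochondrial share, and the part of that library in these values was not tested.

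The third was chrI:15063437-15068936, 11 windows at the right end of chromosome I, the end that carries the ribosomal RNA gene array. It held 77571 and 122635 scaled reads per window in the 37 °C inputs and 41421 and 45787 in the 37 °C IP libraries (log2 difference −1.20 ± 2.33 SE, adjusted p = 0.751). This region alone supplied 23.0% to 70.2% of all reads in long domains in the 8 H3K9me2 libraries. Means over pooled domain windows are therefore dominated by it, and medians over domains are used here.

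At the level of single windows, 67.4% of the windows in long domains were at least 2-fold over input at 37 °C, compared with 7.05% of all nuclear windows. In the same units the shorter domains stood at 46.2%. Every window stayed at or above that level in 40 domains (13.8%), and no window did in 7. The median domain kept an unbroken stretch of 5 such windows. Applied to the 37 °C pairs, the same rule gave 144 long runs, and 101 of the 290 domains (34.8%) overlapped one of them. Of these 144 runs, 43 touched no long domain of 20 °C, and all of them touched at least 1 window that was enriched at 20 °C. The longest run at 37 °C had 39 windows (chrIII:1170098-1189597) and lay wholly inside the longest domain of 20 °C.

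The H3K9me2 IP signal at 37 °C relative to 20 °C is given as a description, because the 20 °C libraries selected the domains. Scaled IP reads at 37 °C were 55.7% of those at 20 °C in the median domain, with a range of 31.8% to 98.2%. All 290 domains had a lower mean at 37 °C, and in 259 both 37 °C libraries were below both 20 °C libraries, as in 16.7% of all segments. The remaining level depended on the 20 °C replicate. The 37 °C IP stood at 42.0% of the 20 °C IP when the libraries numbered 1 were compared and at 79.5% when those numbered 2 were compared. When domains were called from pair 1 alone and the 20 °C level was taken from replicate 2, which then had no part in the choice, the value was 88.9%, and the reverse gave 51.9%. The shorter domains gave 58.0% by the same measure as the long ones. The medians by chromosome ran from 53.3% on IV to 59.2% on III.

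The largest domains show these features in single regions. The longest, chrIII:1163098-1189597, spanned 26500 bp. Its scaled H3K9me2 IP reads per window were 1364 and 761 at 20 °C and 579 and 578 at 37 °C, and its 37 °C inputs held 157 and 152. At 37 °C, 52 of its 53 windows were still at least 2-fold over input (log2 difference 1.91 ± 0.41 SE, adjusted p = 0.00144). Its H3K27ac IP was below input in all 12 pairs, with log2 enrichments of −0.67, −0.39 and −0.44 in WT, −0.80, −0.54 and −0.75 in HS, −0.40, −0.64 and −0.31 in met-2Δ and −0.37, −0.31 and −0.82 in met-2-CD.

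The second, chrI:12516448-12531947, had 31 windows and held more H3K27ac in HS. Its H3K9me2 IP reads were 813 and 481 at 20 °C and 334 and 327 at 37 °C, with 148 and 135 in the 37 °C inputs (log2 difference 1.22 ± 0.26 SE, adjusted p = 0.00127). Its H3K27ac IP reads per window were 123, 132 and 124 in WT and 212, 280 and 209 in HS, so that every HS library exceeded every WT library (log2 difference 0.89 ± 0.24 SE, adjusted p = 0.00248). The call was lost without any one of the WT libraries or without HS replicate 2 (adjusted p up to 0.0341, log2 difference 0.74 at the lowest), and with the replicate block (adjusted p = 0.0113). One of its windows was positive for H3K27ac, that is at least 2-fold over input in 2 of 3 pairs, in WT and 9 were in HS. The met-2Δ libraries held 154, 173 and 154 reads and the met-2-CD libraries 147, 154 and 152, and neither difference from WT passed the threshold (adjusted p = 0.648 and 1.00).

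The next 5 in length, of 24 to 27 windows, all lay on the right arm of V, at chrV:18650396-18663895, chrV:17131903-17144402, chrV:19025395-19037394, chrV:19269894-19281893 and chrV:20299389-20311388, the last 3 tied for length. At 37 °C they kept 22, 14, 21, 20 and 12 of their windows at least 2-fold over input, and IP exceeded input in each, by log2 1.43, 1.06, 1.55, 1.28 and 1.01. With either 37 °C IP library left out, so that the spread came from the 2 inputs alone, none of these 7 longest domains was called (highest adjusted p from 0.0505 to 0.291). In all 5 domains on V, H3K27ac was below input in every group and none was called different between groups.

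H3K27ac in WT embryos at 20 °C was low in the domains, as it was over much of the genome. The log2 difference between IP and input had a median of −0.42 in the domains and −0.29 over all 24929 segments. IP was lower than input in 178 domains (61.4%), compared with 51.1% of segments, and higher in 22 (7.59%), compared with 20.7%. Because total-read scaling placed most of the genome below input, the direction against input depends on the scaling, and with TMM the split became 35 higher and 96 lower, beside 28.8% and 23.6% of segments. Relative to the median of all segments, the domain median was lower by 0.13. TMM applies a single factor per library and shifts both medians almost alike, so the same difference under TMM is no separate check. Windows positive for H3K27ac made up 2.80% of domain windows, compared with 5.92% of all nuclear windows, and 260 of the 290 domains had none. The shorter domains lay in between, with 4.97% of their windows positive. Blocks made mostly of shorter domains were lower than input in 56.1% and higher in 15.9%, with a median of −0.35.

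The domains with the most H3K27ac carried both marks over their whole length. At chrIII:349102-353101, 8 windows, H3K27ac IP reads per window in WT at 20 °C were 636, 672 and 568, and input reads were 145, 150 and 133, with no overlap (log2 difference 2.13 ± 0.16 SE, adjusted p = 1.93e-13). All 8 windows were positive in each of the 4 groups. H3K9me2 was enriched there in every pair, with 1.61 and 1.46 at 20 °C and 1.04 and 1.06 at 37 °C. At chrIV:16489774-16494773, 10 windows, the H3K27ac IP held 568, 532 and 474 reads and the input 123, 129 and 136 (2.02 ± 0.17, adjusted p = 1.51e-12), and H3K9me2 enrichment was 1.62 and 1.43 at 20 °C and 0.67 and 0.64 at 37 °C. The bulk measurement cannot tell whether both marks lie on the same chromatin fibres or in different cells of the embryos. Such domains were few, since 5 of 290 had a mean H3K27ac enrichment of at least 1 in WT.

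**Figure D4:**
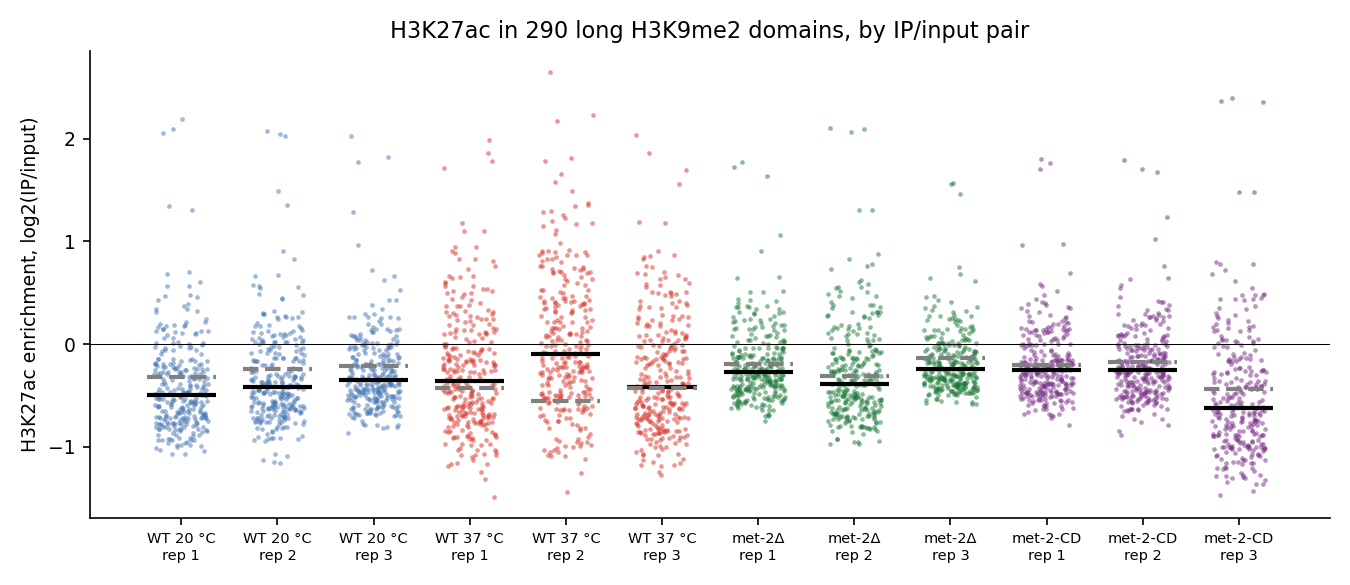
Mean log2(IP/input) of H3K27ac (y axis) in each of the 290 long domains (points) for the 12 same-numbered IP/input pairs (x axis), with the domain median as a black bar and the median of windows outside domains of 3 or more windows as a dashed grey bar. In HS the domain medians are −0.36, −0.09 and −0.42 and the outside medians −0.43, −0.55 and −0.43; in all pairs of the other 3 groups the domain median is the lower.

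At 37 °C the H3K27ac signal rose in a subset of the domains, while the median of all segments fell under total-read scaling. Over all segments, the share above input rose from 20.7% in WT at 20 °C to 24% in HS. The share below input rose from 51.1% to 58.4%. IP was higher than input in 73 domains (25.2%) and lower in 140 (48.3%), compared with 24% and 58.4% of segments. The domain median was −0.22 against −0.43 for all segments, and with TMM it changed sign to 0.16 against −0.05, with 120 domains higher and 58 lower, beside 36.8% and 38.5% of segments. Relative to the segment median the domains were thus higher by 0.21, a difference that a change of scaling leaves almost unmoved by construction. Most of this came with HS replicate 2, since without it the domain median was −0.37 against −0.40 for all segments, with 51 domains higher and 151 lower, beside 22.7% and 55.1% of segments. Positive windows made up 5.73% of domain windows, compared with 8.23% of all nuclear windows, and 59 domains had at least 1, compared with 30 in WT at 20 °C. The share of positive windows also rose elsewhere, from 5.92% in WT to 8.23% in HS over all nuclear windows and from 4.97% to 10.0% in the shorter domains. The number of other segments with a positive window is not given, so the counts of domains cannot be set against it. With pairs 1 and 3 alone, both at least 2-fold over input, positive windows were 4.05% of domain windows in HS, compared with 6.94% of all nuclear windows, and 2.25% and 4.73% in WT, and 44 domains held one in HS and 22 in WT.

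The direct comparison of H3K27ac IP between HS and WT gave 74 domains higher (25.5%), compared with 9.37% of all segments, and 8 lower (2.76%), compared with 19.1%. The median log2 difference was 0.11 in the domains and −0.18 over all 24924 segments, 0.29 above it. TMM moved the segment median to −0.02 and gave 107 domains higher and none lower, beside 13.6% and 9.40% of segments. At an unadjusted p under 0.05 edgeR with TMM gave 159 domains, with no segment share computed. The domain median stayed 0.30 above the segment median, because TMM shifts both almost alike. TMM without HS replicate 2, an alternative chosen after seeing the data, gave 66 higher and 3 lower, beside 9.28% and 4.14% of segments. The log2 differences of the 74 domains ran from 0.33 to 1.07 with a median of 0.62. The 74 were called on these same libraries. In 72 of the 74, all 3 HS libraries were above all 3 WT libraries, as in 23 of the 208 domains that were not called. HS replicate 2 was the highest HS library in 67 of the 74 and in 170 of the 208. Without it, 53 domains were higher, all of them among the 74, and 10 were lower, beside 6.62% and 7.02% of segments, and the domain median was −0.0046 against −0.15 for all segments. On input reads, no domain and 0% of segments were called in the same edgeR test (6 domains at an unadjusted p under 0.05, beside 1.25% of segments). In the test of the difference in IP over input, 59 domains were higher and 1 was lower, beside 5.40% and 9.04% of segments.

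**Figure D5:**
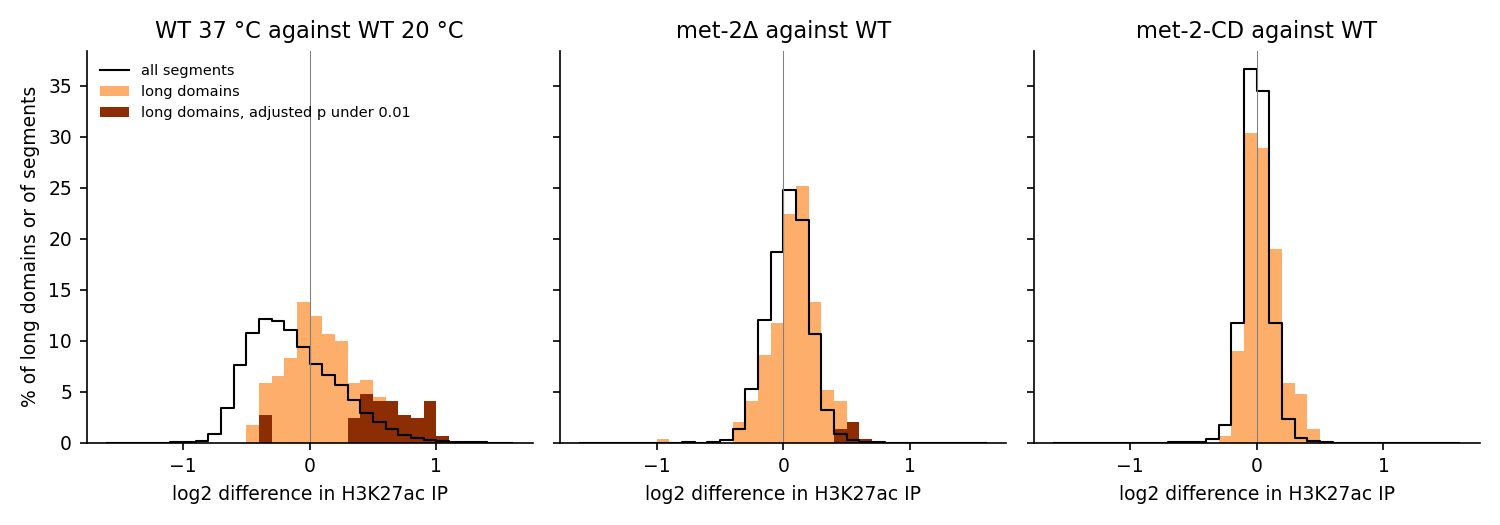
Distribution of the log2 difference in H3K27ac IP (x axis) over the 290 long domains (orange bars, with called domains in brown) and over all segments (black line), as a percentage of each (y axis), for HS, met-2Δ and met-2-CD against WT at 20 °C, which all 3 comparisons share. In HS the domain median is 0.11 and the segment median −0.18; in the mutants the medians are 0.10 and 0.05, and 0.03 and 0.00.

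Blocks made mostly of shorter domains gave 131 of 490 higher (26.7%) and 6 lower, and 82 (16.7%) and 4 without HS replicate 2. Outside the long domains, 12.0% of the blocks in the outermost 25% at each end were higher and 13.9% lower, and of the blocks in between 6.43% and 24.5%. Within the long domains the share called higher was 29.1% for runs of 8 windows, 20.0% for runs of 9 and 25.2% for runs of 10 or more, and 19.8%, 17.8% and 17.6% without HS replicate 2. By chromosome, there were 27 of 67 domains higher on I (13.9% of its segments), 14 of 54 on II (9.88%), 15 of 73 on III (14.9%), 14 of 33 on IV (10.5%) and 4 of 50 on V (6.29%). The 8 lower domains were 2 each on II, III and X and 1 each on IV and V, where 15.6%, 9.99%, 27.4%, 22.7% and 22.9% of segments were lower, in that order. Without HS replicate 2 the numbers higher were 20, 9, 10, 12 and 2, beside 9.73%, 7.02%, 10.1%, 7.46% and 4.83% of the segments of I, II, III, IV and V.

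The lowest p-values for a gain in HS belonged to 3 regions. At chrIV:1968836-1972835 the H3K27ac IP reads per window were 111, 113 and 124 in WT and 212, 279 and 195 in HS, with no overlap (log2 difference 0.98 ± 0.10 SE, adjusted p = 6.41e-15). At chrI:2029493-2033992 they were 89.9, 87.7 and 104 in WT and 177, 214 and 152 in HS (0.94 ± 0.09, adjusted p = 6.65e-15). At chrIV:16931772-16936271 they were 92.8, 104 and 91.5 in WT and 165, 246 and 150 in HS (0.96 ± 0.10, adjusted p = 7.10e-14). Replicate 2 was the highest HS library in each, and each remained past the threshold when any one library was left out, with log2 differences no lower than 0.71. The first had an H3K9me2 enrichment of 1.35 and 1.26 at 37 °C and the third 1.09 and 1.19, whereas the second had 0.31 and 0.07 and none of its 9 windows stayed at 2-fold over input. In terms of level these regions remained modest, with HS enrichments over input between 0.09 and 0.92 in log2 units.

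The 74 domains were selected on their HS and WT IP reads, so their H3K27ac levels are a description. Their median H3K27ac enrichment was −0.22 in WT and 0.36 in HS, and 0.20 in HS pairs 1 and 3. Their median H3K9me2 enrichment was 1.88 at 20 °C and 1.08 at 37 °C, and that of the 208 domains that were not called was 1.79 and 1.22. H3K9me2 IP at 37 °C was 51.6% of that at 20 °C in the 74 and 56.2% in the 208, and 65 of the 74 (87.8%) and 200 of the 208 (96.2%) were called enriched in H3K9me2 at 37 °C. Across all 290 domains, H3K9me2 enrichment at 37 °C and H3K27ac enrichment in HS had an r of −0.12 and a rho of −0.13 (n = 290). These points share no library, and each domain shares its libraries with all others.

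The 8 domains that fell in HS changed little, by −0.33 to −0.39 on the log2 scale. The lowest p belonged to chrIII:1561097-1566096, with 121, 145 and 132 H3K27ac IP reads in WT and 96.5, 111 and 95.2 in HS, again without overlap (log2 difference −0.39 ± 0.09 SE, adjusted p = 0.000363). Next were chrIV:913840-921339, with 70.3, 86.1 and 92.0 against 65.9, 61.0 and 66.4 (−0.36 ± 0.10, adjusted p = 0.00261), and chrII:459512-463511, with 121, 140 and 129 against 98.4, 97.0 and 109 (−0.36 ± 0.10, adjusted p = 0.00334). The second call was lost without WT replicate 2 or 3 (adjusted p up to 0.0395) and the third without WT replicate 2 or 3 or HS replicate 1 or 2 (adjusted p up to 0.0313), and none of the 8 was called lower with TMM.

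In met-2Δ embryos, which lack MET-2, few domains differed from WT in H3K27ac. Against input, IP was higher than input in 30 domains and lower in 139, compared with 19.5% and 42.4% of segments. With TMM the numbers were 46 and 54, beside 27.1% and 8.39% of segments, and without met-2Δ replicate 2 they were 16 and 41, beside 13.4% and 4.49%. Positive windows were 2.65% of domain windows, compared with 4.54% of all nuclear windows. Against WT, 11 domains were higher (3.79%), compared with 0.502% of segments, and none was called lower by edgeR or by DESeq2. Of the 490 blocks made mostly of shorter domains, 14 were higher (2.86%) and 1 was lower, with a median log2 difference of 0.10. Higher calls were therefore not particular to the long domains. Outside the long domains, 107 blocks at the chromosome ends were higher (0.88%) and 3 were lower. Between these ends, 7 blocks were higher (0.0561%) and 10 were lower. At an unadjusted p under 0.05 edgeR gave 48 domains higher and 8 lower, beside 9.61% of segments in either direction. The median log2 difference was 0.10 in the domains and 0.05 over all segments. It moved to 0.05 against 0.02 without WT replicate 1, to 0.15 against 0.09 without met-2Δ replicate 2, and to 0.04 against −0.0096 with TMM.

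The 11 calls were not stable. The test of the difference in IP over input left none of them (37 domains at an unadjusted p under 0.05), TMM left 3, DESeq2 called 5 of which 4 were among the 11, and cutting the rest of the genome into blocks of 16 windows gave 4 of which 1 was. Leaving out single libraries gave 6 to 10, with 6 without WT replicate 1 or without met-2Δ replicate 2. The shares of segments under these settings are not given, so the counts show only how many calls each setting made in the domains. No domain and 0.012% of segments differed in the input libraries (edgeR, 4 domains at an unadjusted p under 0.05, beside 0.967% of segments). The lowest p was found at chrI:2029493-2033992, described above for HS, where met-2Δ libraries held 134, 146 and 131 reads against 89.9, 87.7 and 104 in WT, with no overlap (log2 difference 0.54 ± 0.09 SE, adjusted p = 3.67e-05). At chrIV:16931772-16936271, also described above, met-2Δ libraries held 139, 155 and 132 reads against 92.8, 104 and 91.5 (0.56 ± 0.10, adjusted p = 6.42e-05). At chrI:906998-910997 they held 126, 136 and 126 reads against 87.6, 82.7 and 83.7 in WT (0.61 ± 0.11, adjusted p = 9.05e-05). The HS comparison shares the WT libraries with these, and its own log2 differences at the same 3 regions were 0.94, 0.96 and 0.70. For IP over input the adjusted p of the 3 was 0.101, 0.263 and 0.199.

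In met-2-CD embryos, whose MET-2 is present but catalytically deficient, no domain was called different from WT by edgeR, compared with 0.0481% of segments called higher. At an unadjusted p under 0.05 edgeR gave 24 of the 290 domains, all higher, beside 2.48% of segments in either direction. DESeq2 gave 23 domains at that level, with no segment share computed, and none after adjustment. The 290 log2 differences had a median of 0.03 and ran from −0.21 to 0.48, and the lowest adjusted p was 0.0636. Without met-2-CD replicate 3 the median was 0.13, against 0.05 over all segments. At the 3 regions named above for met-2Δ, met-2-CD libraries held 122, 121 and 113 reads, 135, 129 and 121 reads, and 117, 116 and 105 reads, all above the WT libraries, with log2 differences of 0.33, 0.42 and 0.41 that did not pass the threshold (adjusted p = 0.208, 0.0636 and 0.138). IP was higher than input in 31 domains and lower in 161, compared with 21% and 51.8% of segments, and with TMM in 52 and 86, beside 30.1% and 22.2% of segments. Positive windows were 2.68% of domain windows, compared with 5.54% of all nuclear windows.

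The 2 mutants, a deletion and a point mutation in the SET domain, were also compared directly. No domain passed the threshold in edgeR or DESeq2, compared with 0.0682% of segments called higher in met-2Δ by edgeR. At an unadjusted p under 0.05 edgeR gave 20 of the 290 domains, beside 4.22% of segments. DESeq2 gave 6 at that level, with no segment share computed. The log2 differences ran from −0.73 to 0.37 with a median of 0.05, which was also the median of all segments. Without met-2-CD replicate 3 the median turned to −0.04, against −0.0017 over all segments. Replicate 3 of met-2-CD was lower than its fellows in the domains, with median enrichments of −0.28, −0.25 and −0.65 over domain windows in the 3 pairs. When that replicate was left out, 62 domains rather than 24 reached an unadjusted p under 0.05 in edgeR between met-2-CD and WT, and the number called after adjustment was still 0. The share of segments at that level was not computed without that replicate, so the 62 cannot be set against it.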

How the data were processed

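H3K9me2 (8 libraries) and H3K27ac (24 libraries) ChIP–seq reads of early embryos were analysed from 2 count tables. The authors aligned paired-end reads to ce10 with bowtie through QuasR, retaining reads with a single best position, and deposited raw counts per non-overlapping 500-bp window, 1 column per library, without normalization. Reads that match several places of the assembly equally well are therefore missing, whereas a repeat that the assembly holds once collects the reads of all its copies. Both mates were counted, so counts are not independent molecules. All 32 columns were mapped to samples by their labels.

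Windows on the mitochondrial chromosome (28) were removed. Columns were scaled by nuclear totals to their mean. Enrichment was log2 of IP over the same-numbered input, each with a pseudocount of 2. Segments were the 290 domains and the remaining windows in blocks of 8. Counts per segment were tested with edgeR 4.0.16 (glmQLFit, glmQLFTest; filterByExpr; library sizes equal to nuclear totals; SE from the log2 difference and F) in R 4.3.3, with Benjamini–Hochberg adjustment and a threshold of 0.01. The H3K9me2 fit used the 37 °C libraries alone. H3K27ac fits used all 24 libraries against input or the 12 IP libraries between groups. Scripts were tested on simulated data. Replicates of a group differed by more than counting noise (chi-square per degree of freedom of at least 2.28, with about 2 from paired mates alone). The alternatives were TMM, DESeq2 1.42.0 (mean dispersion trend, because the default trend could not be fitted for H3K9me2), no low-count filter, totals of all windows, larger blocks, a replicate block and leaving out replicates.

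The domains and the regions named were chosen with earlier results of these data known. The named regions are the longest 5 with ties, the 3 highest and 3 lowest in H3K9me2 enrichment at 37 °C, the 3 lowest p per H3K27ac contrast and direction, and the 2 highest in WT H3K27ac. Neither ce10 sequence nor ce10 gene annotation was used here, so the genes and repeats in the domains are not given.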

Additional observations from a re-analysis of the deposited data

How the results depend on the processing

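The number of long domains depended on the rule. It was 538 when columns were scaled by all windows, 85 at a log2 enrichment of at least 1.5, 109 when both pairs had to pass in every window, 568 for runs of at least 6 windows and 96 for runs of at least 12, compared with 290. It was 338 and 267 from pair 1 or pair 2 alone. H3K9me2 IP at 37 °C as a percentage of 20 °C was 88.9% with domains from pair 1 and the 20 °C level from replicate 2, and 42.6% to 79.5% when single libraries were left out. The mean over pooled domain windows gave 48.1%, and 55.6% without the domain at the right end of chromosome I, both chosen after seeing the data. Counts of domains different from input with TMM were 131 in WT and 100 in met-2Δ, compared with 200 and 169. Leaving out 1 replicate gave 185 to 193 domains for H3K9me2 at 37 °C, and for H3K27ac against input 149 to 186 in WT, 185 to 202 in HS, 57 to 156 in met-2Δ and 128 to 180 in met-2-CD. Between groups it gave 63 to 88 for HS, 6 to 10 for met-2Δ and 0 for met-2-CD and for the 2 mutants. These ranges take higher and lower calls together. Segment shares are not given beside them, so they show only how many calls each setting made in the domains. For met-2Δ against WT the counts were 3 with TMM, 0 for IP over input, 4 with blocks of 16 windows and 5 with DESeq2, with segment shares not given.

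Replicate numbers did not pair the H3K27ac IP libraries, since deviations from the group mean correlated above 0.1 in 7 of 18 same-numbered pairs (−0.77 to 0.49). With the replicate number as a block, HS had 84 called domains, met-2Δ 12 and met-2-CD 1, and the mean of same-numbered percentages of H3K9me2 IP was 63.5%. The counts with the block take both directions together and are given without segment shares, so they too describe the setting alone. For the named domains, 162 of 211 alternative values kept their direction and side of the threshold, 47 lost the call, 2 gained it and 0 changed direction.

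The H3K9me2 comparison has 2 replicates per temperature, with input depths from 9928436 to 89301222 reads. The 20 °C replicates differed more than the 37 °C replicates, with a chi-square per degree of freedom of 176 and 6.01 for the IP and 184 and 19.6 for the input.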
